A study of Homo sapiens with 36 samples.

Results

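H3255 is an established non-small cell lung cancer line whose EGFR gene carries the activating kinase-domain change L858R, per the labels. Its untreated transcriptome was read from the 3 vehicle libraries of the line, out of 36 libraries in the series, and was set against the 9 vehicle libraries of A549, whose EGFR is wild type, H820 (T790M beside Ex19del) and H1975 (T790M beside L858R), 3 for each line. All 12 were cultures given the vehicle, DPBS with Mg2+, for 24 h in medium with 1% fetal bovine serum, and the aptamer-treated libraries, among them those given the control aptamer C36, entered alternative settings only. Of the genes in the files, 16765 had a mean of at least 1 FPKM (fragments scaled to transcript length and to the size of the library) in any of the 4 lines and were tested. A gene that reached this mean in H3255 only could come out higher there but not lower. A gene was called specific to H3255 when it differed in the same direction from each of the other 3 lines, and 7293 genes (43.5%) met that rule. H3255, H1975 and H820 were kept in RPMI and A549 in DMEM, so in A549 the line and the medium cannot be told apart, and each line stands for an EGFR genotype and for the rest of its genome at once.

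EGFR is a receptor tyrosine kinase that, once bound by a ligand or activated by a kinase-domain change, signals through RAS, RAF, MEK and ERK. Active ERK induces a set of immediate feedback genes, among them the phosphatase DUSP6 and the SPRY and SPRED inhibitors. Lung adenocarcinoma lines differ in how much of the alveolar programme driven by NKX2-1 they keep, and in whether they hold epithelial junctions or have moved toward vimentin-positive, mesenchymal expression.

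The deposited values summed to between 392161 and 438377 FPKM per library, with 13236 to 14039 genes above 1 FPKM. Relative depth, read from the step between low values, spanned 2.35-fold over the 12 libraries, and H3255 replicate 2 was the shallowest, while H3255 replicates 1 and 3 lay within the range of the other lines. Vehicle libraries of H3255 correlated with those of the other lines at Pearson's r of 0.895 to 0.924. This r was taken over all 66366 joined entries of the files, not only the tested genes, so entries low in every line are included. It is a description across genes that are not independent. Markers of blood (PTPRC, CD3E), endothelium (PECAM1, VWF) and fibroblasts (DCN) were at most 0.0746 FPKM in any H3255 library, while COL1A1 was at 2.59, 2.56 and 2.63 FPKM. The epithelial markers EPCAM (209, 218 and 216 FPKM) and KRT8 (770.0, 792 and 773 FPKM) were abundant in the H3255 libraries. Because these are bulk samples, more cells with a transcript and more RNA per cell cannot be told apart.

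Most genes differed between H3255 and any single line, so a call against 1 line said little by itself. Limma on log2(FPKM + 0.5) called 13920 of 16765 genes (83%) against H1975 at a Benjamini-Hochberg adjusted p under 0.05, of which 5789 (34.5%) were higher in H3255 and 8131 (48.5%) lower. Against H820 it called 13998 (83.5%), 6911 (41.2%) higher and 7087 (42.3%) lower, and against A549 14107 (84.1%), 7142 (42.6%) higher and 6965 (41.5%) lower. The 3 comparisons share the H3255 libraries. Higher than in each other line were 3578 genes (21.3%), and lower than in each were 3715 (22.2%), the shares against which counts of list members are set. The difference nearest 0 among the 3, taken as the size of a specific gene, was under 0.5 in 3123 of the 7293 specific genes, so small differences made up much of the count. Without a test, the 3 H3255 libraries lay above all 9 others for 3680 genes (22%) and below them for 3890 (23.2%). At least 2-fold higher than in each other line were 1073 genes (6.4%), of which 858 were protein-coding, and at least 2-fold lower were 822 (4.9%), of which 675 were protein-coding. By the same 2-fold rule H1975 had 756 genes higher and 166 lower, H820 had 788 and 293, and A549 had 950 and 731. At the edge of the rule, IL1R1 lay just inside and DNMT3A just outside on the higher side, both with a smallest difference of 1.0 after rounding. On the lower side RPRD1A at -1.0 lay just inside and PFN2 at -0.998 just outside. In the C36 libraries, further cultures of the same lines, 1013 of the 1073 higher and 737 of the 822 lower genes met the 2-fold rule again.

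EGFR and its chromosomal neighbours stood far above the other lines. EGFR (chr7:55019021-55211628, GRCh38) was measured at 415, 421 and 420.2 FPKM in H3255 against 24.6, 27.8 and 25.9 in H1975, 7.39, 7.56 and 7.67 in H820 and 19.4, 20.3 and 19.9 in A549. The H3255 libraries lay above all 9 others, with log2 differences of 3.98, 5.71 and 4.36 from H1975, H820 and A549 (SE 0.041, largest adjusted p = 4.28e-16 in limma). SEC61G, a subunit of the channel that moves proteins into the endoplasmic reticulum, starts before EGFR on the chromosome and was at 672, 707 and 734 FPKM in H3255 against 84.7, 91.4 and 91.5 in H1975, 61.4, 63.8 and 54.7 in H820 and 59.4, 53.6 and 51.4 in A549. LANCL2, which lies on the other side, was at 62.2, 65.2 and 64.6 FPKM in H3255 against 8.85, 8.76 and 8.87 in H1975, 5.52, 5.06 and 5.52 in H820 and 4.24, 4.25 and 3.84 in A549. CHCHD2, a mitochondrial protein gene at the far end of the stretch, was at 2237, 2180.0 and 2239 FPKM in H3255 against 561, 489 and 493 in H1975, 299, 316 and 290.1 in H820 and 318, 295 and 279 in A549. In each of these genes every H3255 library was above every other library, and the differences from the 3 lines were 2.97, 3.55 and 3.67 for SEC61G, 2.79, 3.46 and 3.81 for LANCL2 and 2.11, 2.88 and 2.9 for CHCHD2 (largest adjusted p = 3.44e-12 in limma, for CHCHD2).

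From SEC61G to CHCHD2, a span of 1.35 Mb (chr7:54752250-56106576), all 12 tested protein-coding genes were at least 2-fold higher than in each other line, where 6.4% of all tested genes were. They were SEC61G, EGFR, LANCL2, VOPP1, ZNF713, MRPS17, NIPSNAP2, PSPH, CCT6A, SUMF2, PHKG1 and CHCHD2. The ends of the span were set with earlier results of these data known, so this count follows in part from that choice. Among tested genes with a position, the nearest protein-coding ones outside it were COBL and ZNF727, at -3.70 and 9.03 Mb from EGFR. How far the excess reaches into these gaps was therefore not measured. The median differences over the 12 were 2.41, 2.85 and 2.89 log2 units from H1975, H820 and A549, against -0.14, -0.002 and 0 over all tested genes. Ratios of mean FPKM between H3255 and another line ran from 3.48 to 55.5 over the 12 genes and 3 lines. The chaperonin subunit CCT6A reached 624, 669 and 659 FPKM in H3255, with 102 ± 0.66, 85.2 ± 1.51 and 87.7 ± 5.12 (mean ± SD, n = 3) in the other lines. PSPH, the last enzyme of serine synthesis, had the smallest excess, at 70.7 ± 1.49 FPKM in H3255 against 20.3 ± 0.132 in H1975, 14.5 ± 0.315 in H820 and 14.9 ± 0.0822 in A549 (mean ± SD, n = 3). The 12 genes together took 1.17% to 1.22% of all FPKM in the H3255 libraries, 0.135% to 0.143% in A549, 0.151% to 0.162% in H820 and 0.211% to 0.221% in H1975.

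The excess did not extend evenly along the chromosome. Within the same span 4 other tested entries, the pseudogenes FKBP9P1, PSPHP1 and SUMO2P3 and a small nucleolar RNA, were not higher in H3255 than in each other line, and FKBP9P1 was lower. SUMF2 overlaps PHKG1 on the opposite strand, and whether the authors' counting used strand is not stated. NIPSNAP2 overlaps MRPS17 on the same strand, so strand could not separate that pair. Levels within each pair are therefore less certain. Outside the span and within 10 Mb of EGFR, 26 genes were tested, of which 9 were higher than in each other line, 3 of them at least 2-fold, and 4 were lower. Among all tested genes 21.3% were higher, 6.4% at least 2-fold, and 22.2% lower, and on chromosome 7 as a whole 49.3% were higher. ZNF736, ZNF680, ZNF107, ZNF138, ZNF273 and ERV3-1, on the far side of CHCHD2, were among those higher. The largest smallest-of-3 difference of the 26 was 1.10, below the 1.77 of PSPH, the least of the 12. Of 13909 stretches of 10 neighbouring tested genes across the genome, the one from SEC61G to MRPS17 had the largest median excess, 2.15.

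**Figure D1:**
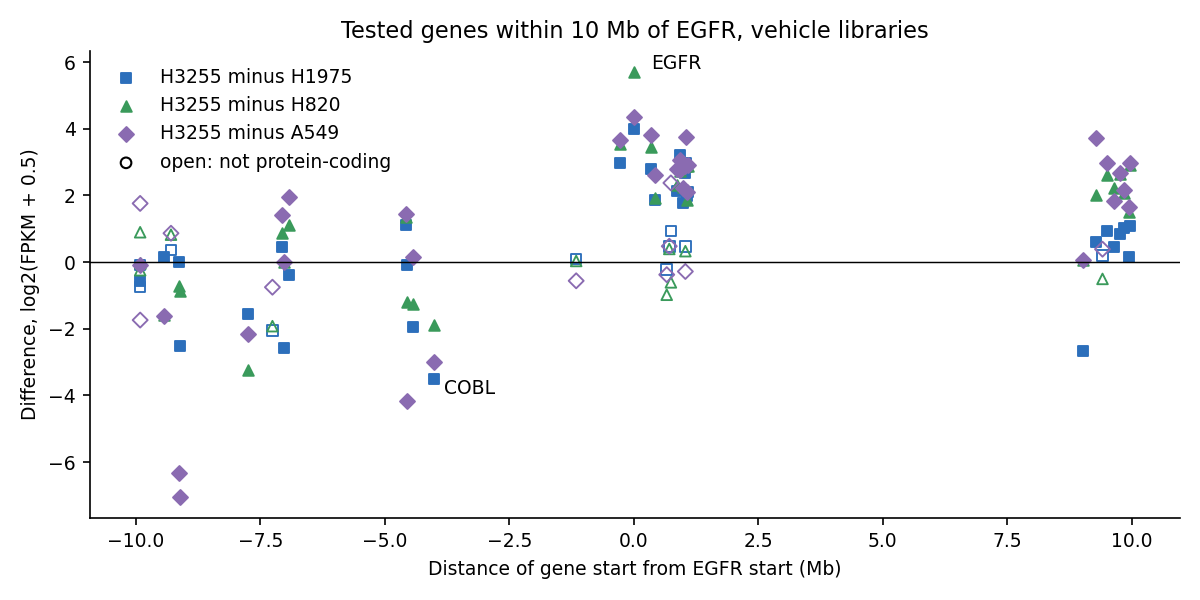
Difference between H3255 and each other line (vertical axis, log2(FPKM + 0.5), mean of 3 vehicle libraries minus mean of 3) for tested genes within 10 Mb of EGFR, by the distance of the gene start from the EGFR start (horizontal axis, Mb). Filled symbols are protein-coding genes and open symbols other entries; the 12 filled genes between SEC61G and CHCHD2 sit between 1.77 and 5.71 in all 3 comparisons, while genes 3 to 10 Mb to the left lie on both sides of 0. Most points 9 to 10 Mb to the right lie above 0.

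The other ERBB receptors were higher in H3255 too, while the ligands of the family were mixed. Of 15 tested receptors and ligands of the family, 7 were higher than in each other line and 2 lower, against 21.3% and 22.2% of all tested genes. ERBB4 and EPGN averaged at least 1 FPKM in H3255 only, so they could not be called lower. The medians of the 15 were 0.37, 0.58 and 1.59. ERBB2, the ligandless partner receptor, was at 73.8, 72.8 and 75.2 FPKM in H3255 against 19.8, 18.9 and 18 in H1975, 8.26, 8.75 and 8.95 in H820 and 9.24, 8.59 and 9.24 in A549. ERBB3, whose kinase is weak and which signals through PI3K when paired, was at 28.4, 29.4 and 28.7 FPKM in H3255 against 8.56, 8.54 and 8.57 in H1975, 3.07, 2.4 and 2.4 in H820 and 6.59, 6.5 and 6.89 in A549. Neither receptor overlapped between H3255 and any other line, with differences of 1.94, 3.02 and 2.97 for ERBB2 and 1.7, 3.24 and 2.04 for ERBB3 (largest adjusted p = 9.09e-11 in limma, for ERBB3). ERBB4 was low everywhere but present in H3255, at 1.11, 1.12 and 1.08 FPKM, and at most 0.00283 FPKM in any other library.

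Among the ligands, epigen (EPGN) was at 3.1, 3.03 and 4.15 FPKM in H3255 and at most 0.0631 elsewhere, and betacellulin (BTC) was at 9.23 ± 0.379 FPKM in H3255 against 1.1 ± 0.036 in H1975, 6.0 ± 0.398 in H820 and 2.0 ± 0.161 in A549 (mean ± SD, n = 3). EGF itself was only 0.13 log2 units above H820 (adjusted p = 0.0383 in limma). The ERBB3 and ERBB4 ligand NRG1 was close to 0 in H3255, at 0.0268, 0 and 0 FPKM, and at 8.97, 9.46 and 9.1 in H1975, 3.84, 3.31 and 3.47 in H820 and 13.8, 14.5 and 13.6 in A549. Epiregulin (EREG) was also lower in H3255, at 1.71, 1.59 and 1.76 FPKM in H3255 against 8.76, 10.01 and 9.71 in H1975, 55.3, 53.8 and 55.4 in H820 and 34, 27.6 and 29.98 in A549. The H3255 libraries were below all 9 others for both ligands (largest adjusted p = 4.42e-14 for NRG1 and 9.57e-12 for EREG in limma). Amphiregulin (AREG), TGFA and HBEGF were not specific: TGFA was above H820 and A549 but below H1975.

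Most feedback genes on the ERK output list were higher in untreated H3255, but not all. Of 20 tested genes of the EGFR-MAPK output list, 14 were higher than in each other line, 11 of them at least 2-fold, and 2 were lower, both at least 2-fold. The shares over all tested genes were 21.3% and 22.2%. List medians were 1.75, 2.91 and 1.13 from H1975, H820 and A549. DUSP6, the phosphatase that removes phosphate from ERK, was at 229, 241 and 248 FPKM in H3255 against 5.46, 5.42 and 5.41 in H1975, 0.111, 0.126 and 0.0571 in H820 and 3.82, 3.87 and 3.79 in A549. All H3255 libraries lay above the others, by 5.34, 8.65 and 5.79 log2 units (SE 0.047, largest adjusted p = 1.42e-16 in limma). The receptor feedback inhibitor SPRY2 was at 38.5, 37.7 and 38.9 FPKM in H3255 against 6.0, 6.1 and 6.5 in H1975, 2.57, 2.45 and 2.3 in H820 and 1.84, 1.84 and 1.76 in A549. Its relative SPRY4 was at 17.4, 17.1 and 17.8 FPKM in H3255 against 1.94, 2.02 and 2.16 in H1975, 0.0796, 0.105 and 0.0682 in H820 and 2.71, 2.78 and 2.94 in A549. Both were highest in all 3 H3255 libraries, with largest adjusted p of 4.04e-14 and 9.77e-14 in limma.

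SPRY1, of the same family, was at 41.2 ± 0.201 FPKM in H3255 against 3.28 ± 0.185 in H1975, 0.822 ± 0.014 in H820 and 1.14 ± 0.113 in A549 (mean ± SD, n = 3). SPRED2, an inhibitor of RAF activation, was at 55.3 ± 0.583 FPKM in H3255 against 8.5 ± 0.405 in H1975, 5.48 ± 0.164 in H820 and 10.1 ± 0.0496 in A549 (mean ± SD, n = 3). Both were likewise higher in H3255 than in each other line. The ETS factors ETV1 and ETV4, which ERK signalling induces, were higher, by 2.27, 4.94 and 3.33 for ETV1 and 1.78, 3.88 and 1.03 for ETV4. Cyclin D1 (CCND1), the ERK-induced activator of CDK4 and CDK6, was at 209, 214 and 213 FPKM in H3255 against 60.8, 62.5 and 60.8 in H1975, 8.26, 7.74 and 7.2 in H820 and 89, 90.8 and 92.1 in A549. It was highest in H3255 and lowest in H820, and its 3 differences were 1.78, 4.69 and 1.22 (largest adjusted p = 2.03e-11 in limma).

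The 2 list members that were lower are growth factor-induced transcription factors. FOSL1, an AP-1 subunit, was at 2.03, 2.05 and 2.17 FPKM in H3255 against 104, 103 and 106 in H1975, 22.1, 20.4 and 19.1 in H820 and 17.5, 16.1 and 15.4 in A549. MYC was at 7.18, 7.43 and 7.11 FPKM in H3255 against 75.8, 79.8 and 76 in H1975, 73, 74.2 and 74.3 in H820 and 30.5, 29.2 and 30.4 in A549. No H3255 library overlapped another line for either gene, and the differences were -5.34, -3.02 and -2.7 for FOSL1 and -3.33, -3.26 and -1.98 for MYC (largest adjusted p = 1.16e-13 and 1.82e-14 in limma). The feedback phosphatases DUSP4 and DUSP5 were not specific: they were lower than in H1975 and A549, with differences of -1.46 and -3.72 for DUSP4 and -2.39 and -3.45 for DUSP5, and higher than in H820. PHLDA1 was between the other lines, below H1975 and above H820 and A549.

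Among other receptor tyrosine kinases, H3255 held other FGF receptors than the remaining lines. Of 20 tested kinases and ligands outside the ERBB family, 9 were higher than in each other line and 5 lower. Over all tested genes the shares were 21.3% and 22.2%, so the lower count was near its share. FGFR2, which averaged at least 1 FPKM in H3255 only, could not be called lower. List medians were -0.01, 0.32 and 0.70. FGFR3 was at 56.5, 58.3 and 61.8 FPKM in H3255 against 0.624, 0.661 and 0.637 in H1975, 0.348, 0.472 and 0.391 in H820 and 2.09, 2.44 and 2.32 in A549. FGFR2 was also higher, at 5.87 ± 0.526 FPKM in H3255 against 0.0687 ± 0.0233 in H1975, 0.0112 ± 0.00341 in H820 and 0.746 ± 0.0398 in A549 (mean ± SD, n = 3). FGFR1, by contrast, was at most 0.00947 FPKM in H3255 and at 4.67, 4.45 and 4.2 in H1975, 11.6, 12.2 and 11.4 in H820 and 44.5, 44 and 45.5 in A549. FGFR4 was lower as well, with log2 differences of -2.17, -2.21 and -5.43 (largest adjusted p = 2.76e-12 in limma).

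The kinases ROS1 and AXL, both studied in lung cancer, were at opposite ends. ROS1, which normal lung epithelium also makes, was at 4.89, 5.24 and 5.38 FPKM in H3255 and at most 0.102 in any other library. AXL, a receptor for the ligand GAS6, was at 1.45, 1.68 and 1.36 FPKM in H3255 against 12.6, 12.7 and 13.2 in H1975, 27.3, 28.3 and 28.4 in H820 and 38, 37.5 and 37.4 in A549. AXL was lower in each H3255 library than in all others, with differences of -2.74, -3.83 and -4.26 (largest adjusted p = 6.27e-14 in limma). The HGF receptor MET was also lower, with small differences from H1975 and A549: they were -0.28, -1.46 and -0.22 from H1975, H820 and A549. It stood at 43.9 ± 0.569 FPKM in H3255 against 53.5 ± 1.76 in H1975, 122 ± 2.31 in H820 and 51.3 ± 0.788 in A549 (mean ± SD, n = 3; largest adjusted p = 3.21e-05 in limma).

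Most genes of the alveolar list were higher in H3255. Of 28 alveolar genes 22 were tested. Of these, 17 were higher than in each other line, 16 of them at least 2-fold, and 1 was lower. Over all tested genes 21.3% were higher and 22.2% lower. Members such as NAPSA, SFTPA1, SFTPB and ROS1 averaged at least 1 FPKM in H3255 only, so they could not be called lower. The list medians were 3.32, 2.91 and 3.64. NKX2-1, the transcription factor that specifies lung epithelium, was at 71.1, 73.7 and 75.4 FPKM in H3255 against 20.7, 18.7 and 20.2 in H1975, 34.2, 36.1 and 35.6 in H820 and 0.0331, 0 and 0.0313 in A549. Its libraries were ordered H3255, H820, H1975, A549 with no overlap, and H3255 exceeded H820 by 1.04 (largest adjusted p = 2.36e-10 in limma). Napsin A (NAPSA), the protease that processes pro-surfactant protein B, was at 158, 162 and 159 FPKM in H3255 against 0.251, 0.41 and 0.257 in H1975, 0.582, 0.509 and 0.778 in H820 and 0.141, 0.161 and 0.256 in A549.

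The surfactant protein genes SFTPA1 and SFTPB were present in H3255 and close to 0 in the others. SFTPA1 was at 58.1, 64.6 and 61.5 FPKM in H3255 and at most 0.00761 in any other library, and its near-identical copy SFTPA2, which was also higher, may share its reads. SFTPB was at 3.26, 3.57 and 3.61 FPKM, and at most 0.0703 elsewhere. SFTPC, the surfactant gene most particular to type 2 cells, stayed under 1 FPKM on average in H3255 (0.707, 0.8 and 1.04 FPKM) and was therefore not tested. The type 2 phosphate transporter SLC34A2 was at 46.9 ± 0.395 FPKM in H3255 against 0.135 ± 0.193 in H1975, 2.48 ± 0.284 in H820 and 0.118 ± 0.201 in A549 (mean ± SD, n = 3). LPCAT1, which makes surfactant lipid, was at 173 ± 1.07 FPKM in H3255 against 55.1 ± 1.42 in H1975, 40.8 ± 1.23 in H820 and 8.28 ± 0.159 in A549 (mean ± SD, n = 3). Not all genes of this kind were higher: ABCA3, GATA6 and LAMP3 were not specific to H3255. Ratios of mean FPKM in H3255 to H1975, H820 and A549 were 0.536, 0.965 and 1.01 for ABCA3. They were 0.461, 0.397 and 0.954 for GATA6 and 3.93, 0.977 and 0.283 for LAMP3.

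Markers of the other alveolar cell, the flat type 1 cell, did not move together. HOPX was at 189, 199.6 and 202 FPKM in H3255 with at most 1.25 in another line and 0 in all A549 libraries, and the water channel AQP5 was also higher. Caveolin 1 (CAV1) was the 1 list member lower in H3255, at 1.65, 1.68 and 1.77 FPKM in H3255 against 343, 344 and 340.4 in H1975, 196, 186 and 176 in H820 and 132, 117 and 115 in A549. It was below all 9 other libraries, with differences of -7.29, -6.41 and -5.79 (largest adjusted p = 1.07e-16 in limma). AGER and PDPN were under 1 FPKM on average in every line and were not tested.

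Of 9 tested airway secretory and ciliated genes, 4 were higher in H3255 and none of the 9 was lower, against 21.3% and 22.2% of all tested genes. AGR2, an endoplasmic reticulum protein of mucus cells, was at 284, 295 and 297 FPKM in H3255 against 4.33, 4.1 and 3.76 in H1975, 0.699, 0.432 and 0.67 in H820 and 45.3, 35.8 and 38.2 in A549. The mucin MUC5B was at 32.2, 31.8 and 30.9 FPKM in H3255 against 0.0671, 0.0969 and 0.099 in H1975, 0.0059, 0.0156 and 0.00691 in H820 and 6.97, 12.7 and 11.8 in A549. Their transcriptional regulator SPDEF was at 19.9 ± 0.698 FPKM in H3255 against 0.129 ± 0.0223 in H1975, 1.15 ± 0.101 in H820 and 3.12 ± 0.194 in A549 (mean ± SD, n = 3). A549 was the second highest line for all 3 genes. WFDC2 was higher by 0.74, 0.75 and 2.15 with its largest adjusted p at 0.00437 in limma, and that call was lost at a pseudocount of 0.1 (adjusted p = 0.144).

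Genes of epithelial junctions and polarity were higher in H3255 and mesenchymal genes lower. Of 30 tested epithelial genes, 24 were higher than in each other line, 15 of them at least 2-fold, and none was lower by the same rule. Over all tested genes 21.3% were higher and 22.2% lower. The epithelial medians were 1.44, 2.31 and 3.45. E-cadherin (CDH1), which joins epithelial cells, was at 126, 128 and 127 FPKM in H3255 against 33.8, 34.7 and 36.6 in H1975, 21.1, 22.2 and 22.3 in H820 and 32.6, 34 and 33.8 in A549. The H3255 libraries were above the rest by 1.85, 2.51 and 1.91 (SE 0.038, largest adjusted p = 1.53e-13 in limma). RAB25, which recycles membrane proteins in epithelia, was at 109.7, 118 and 116 FPKM in H3255 against 1.21, 0.912 and 1.19 in H1975, 1.23, 1.25 and 1.01 in H820 and 0.0365, 0.026 and 0 in A549. PRSS8 (prostasin), an apical membrane protease, was at 373, 393 and 377 FPKM in H3255 against 4.45, 4.2 and 4.34 in H1975, 3.52, 2.93 and 3.58 in H820 and 0, 0.0459 and 0.00758 in A549. The separation of H3255 from the rest was wider for these 2 genes than for CDH1, 6.17, 6.12 and 7.79 for RAB25 and 6.3, 6.64 and 9.53 for PRSS8.

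GRHL1, a transcription factor of epithelial barriers, differed by 3.15, 2.82 and 4.0, and the tight junction genes CLDN3 and CLDN4 by 3.38, 4.06 and 6.5 for CLDN3 and 2.08, 3.7 and 8.72 for CLDN4. AP1M2, a subunit of the adaptor that sorts proteins to the basolateral membrane, was at 38.5 ± 1.94 FPKM in H3255 against 9.31 ± 0.487 in H1975, 1.69 ± 0.149 in H820 and 14.8 ± 1.64 in A549 (mean ± SD, n = 3). The desmosome linker DSP was at 49.3 ± 1.74 FPKM in H3255 against 37.4 ± 1.37 in H1975, 21 ± 1.24 in H820 and 29.2 ± 3.34 in A549 (mean ± SD, n = 3), higher by 0.39, 1.21 and 0.75 (largest adjusted p = 2.52e-04 in limma). The desmosomal cadherin DSG2 went the other way: it was listed at 0 FPKM in all 3 H3255 libraries against 44.2, 48.3 and 46.1 in H1975, 25.1, 24.5 and 24.5 in H820 and 23.6, 25.3 and 26.1 in A549. DSG2 was thus below every other library although its desmosome partners DSP and JUP were above them.

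E-box sequences read CAGGTG, which repressors such as ZEB1 and SNAI1 bind in epithelial genes, were looked for on both strands of promoters, taken as 250 bases before to 50 after the start in RefSeq (GRCh38.p14). The motif was in 25.2% of 686 promoters of protein-coding genes at least 2-fold higher in H3255, in 16.1% of 527 promoters of those at least 2-fold lower, in 18.4% of 10372 promoters of all tested protein-coding genes and in 20.6% of all 27305 promoters in the table. For genes at least 2-fold higher in H1975, H820 and A549 by the same rule the shares were 18.7%, 22.1% and 18%. The GRHL-type sequence AACNNGTT was in 4.37% of the same 686 promoters, 2.53% of all tested and 3.5% of all in the table, and the AP-1 sequence TGANTCA in 5.83%, 4.59% and 7.76%. TATAAA was in 9.91% of the 2-fold higher and 8.92% of the 2-fold lower genes, against 5.71% of all tested and 12% of all in the table. Of the epithelial list, 16 genes had a promoter in the table and 5 of these held CAGGTG, and of the mesenchymal list 3 of 20. GRHL1, CLDN4, CLDN7, LSR and CGN were higher in H3255 and held no match, while DSG2, which was lower, held 2. A match describes the letters only.

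The promoters of 3 epithelial genes that were higher in H3255 and hold the motif are printed as examples of how the matches lie. They do not stand for the list. The 200 bases before the start are given 5′ to 3′ on the gene's strand, with CAGGTG, or CACCTG where it reads on the opposite strand, in capitals. AP1M2 (chr19:10587313-10587512, minus strand) held 3 matches, beginning 57, 27 and 15 bases before the start. RAB25 (chr1:156060960-156061159, plus strand) held 1, beginning at 41 bases, and DSP (chr6:7541471-7541670, plus strand) held 2, beginning at 178 and 85 bases.
AP1M2: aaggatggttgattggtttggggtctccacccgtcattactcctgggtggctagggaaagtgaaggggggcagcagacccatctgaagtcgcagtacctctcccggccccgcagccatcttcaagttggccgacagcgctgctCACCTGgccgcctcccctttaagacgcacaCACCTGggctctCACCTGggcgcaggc
RAB25: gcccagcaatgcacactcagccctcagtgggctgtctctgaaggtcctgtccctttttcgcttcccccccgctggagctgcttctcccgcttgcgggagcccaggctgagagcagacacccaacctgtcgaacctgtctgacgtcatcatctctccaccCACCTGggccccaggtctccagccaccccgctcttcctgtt
DSP: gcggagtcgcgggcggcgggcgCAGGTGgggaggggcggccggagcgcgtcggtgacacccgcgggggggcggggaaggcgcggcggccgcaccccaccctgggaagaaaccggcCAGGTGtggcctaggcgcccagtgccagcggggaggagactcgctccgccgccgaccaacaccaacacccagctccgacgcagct
The AP1M2 matches crowd the last 60 bases, whereas those of DSP lie farther up in a sequence of 77.5% G and C.

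Mesenchymal genes showed the reverse of the epithelial list. Of 28 tested, 18 were lower than in each other line, 13 of them at least 2-fold, and 2 were higher. Over all tested genes 22.2% were lower and 21.3% higher. The mesenchymal medians were -2.76, -3.54 and -1.11. Vimentin (VIM), the intermediate filament of mesenchymal cells, was at 6.15, 6.29 and 6.29 FPKM in H3255 against 667, 664 and 639.8 in H1975, 297, 302 and 295 in H820 and 372, 364 and 352 in A549. All H3255 libraries lay below all others, with differences of -6.61, -5.47 and -5.75 (SE 0.032, largest adjusted p = 4.77e-18 in limma). The matrix protein gene TGFBI was at 13.6, 14.4 and 13.7 FPKM in H3255 against 408, 413 and 408 in H1975, 329.6, 338 and 339.6 in H820 and 216, 219.8 and 222 in A549. Of the transcription factors that repress E-cadherin, ZEB1 was at most 0.00922 FPKM in H3255 and at 2.97 ± 0.187, 1.91 ± 0.0366 and 3.94 ± 0.23 in the others (mean ± SD, n = 3), and SNAI1 was lower, with differences of -4.05, -1.75 and -1.55.

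The 2 mesenchymal list members that were higher were FBN1, a microfibril protein at only 1.01 ± 0.126 FPKM in H3255, and NT5E, the cell-surface enzyme CD73, at 69.4 ± 2.36 FPKM in H3255 against 48.7 ± 1.55 in H1975, 26.6 ± 0.826 in H820 and 9.74 ± 0.624 in A549 (mean ± SD, n = 3). N-cadherin (CDH2) was listed at 0 in H3255 and was abundant only in H820, where it was at 13.4, 13.2 and 13.9 FPKM. Fibronectin (FN1) did not separate H3255: it was above H820, below H1975 and 0.01 log2 units from A549.

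**Figure D2:**
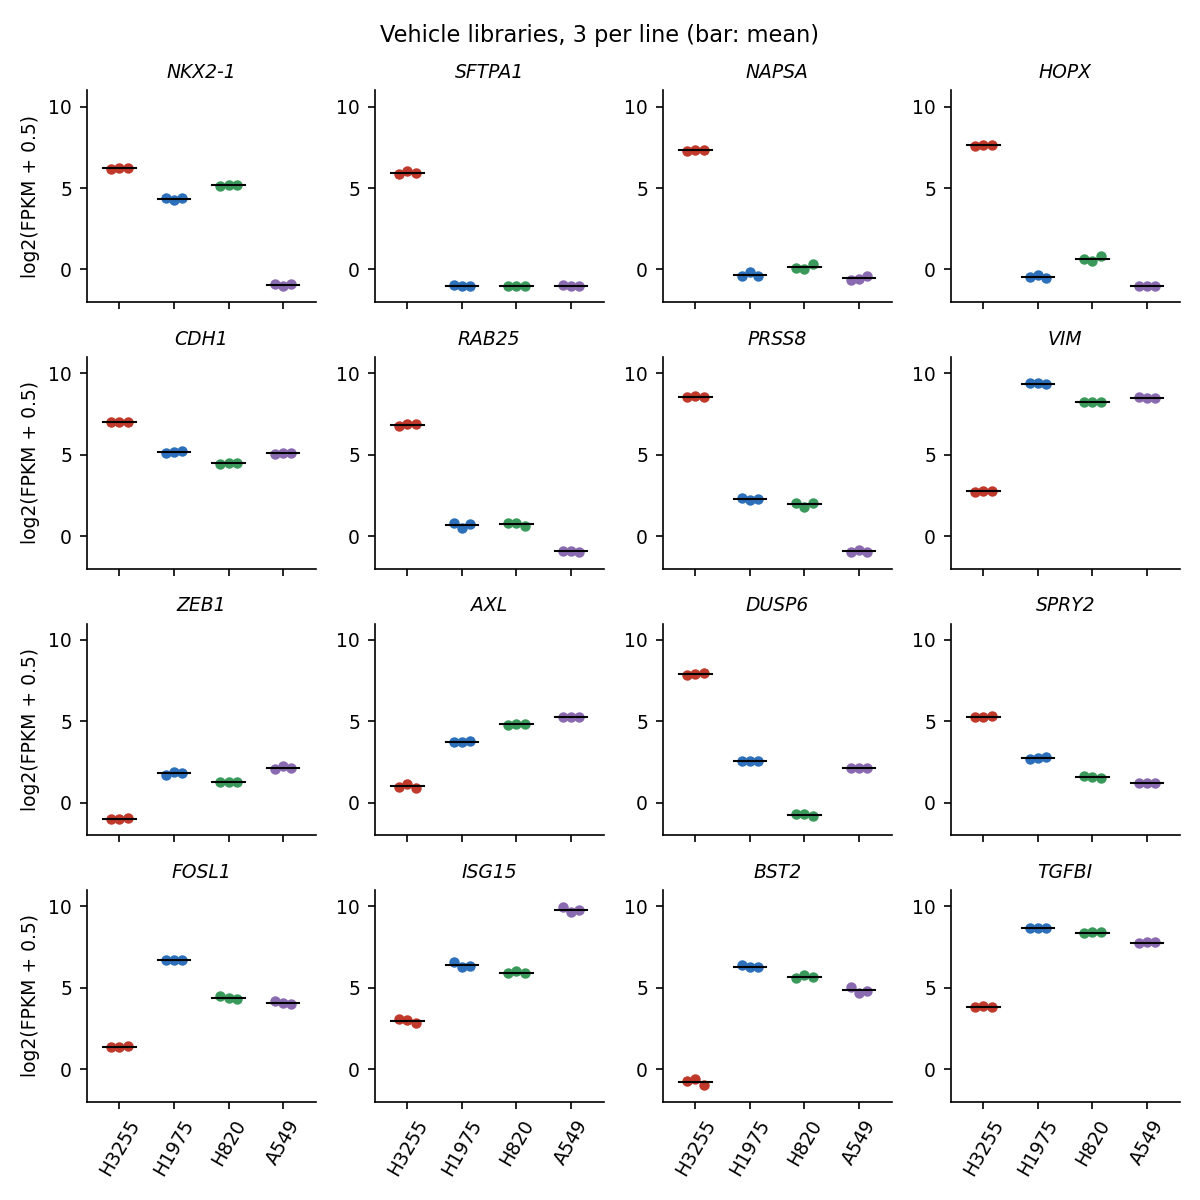
Expression of 16 genes in each of the 12 vehicle libraries (vertical axis, log2(FPKM + 0.5); points are libraries, bars the mean of 3). In all 16 panels the 3 H3255 points lie outside the range of the 9 others, above it for the alveolar and epithelial genes, DUSP6 and SPRY2, and below it for VIM, ZEB1, AXL, FOSL1, ISG15, BST2 and TGFBI.

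H3255 also held part of a basal or squamous set. Of 15 genes of that list 6 were tested and 4 were higher, against 21.3% of all tested genes. TP63, the transcription factor of basal cells, was at 8.41, 8.81 and 8.47 FPKM in H3255 against 0.911, 0.958 and 0.882 in H1975, 0.0277, 0.033 and 0.0237 in H820 and 0.128, 0.162 and 0.13 in A549. Because it averaged at least 1 FPKM in H3255 only, TP63 could not be called lower. SOX2, its partner in squamous lung cancer, was at 15.5, 15.5 and 15.9 FPKM in H3255 against 1.31, 1.28 and 1.38 in H1975, 7.54, 8.18 and 8.13 in H820 and 0.189, 0.172 and 0.14 in A549. S100A2 and the chloride channel regulator CLCA2 were the other two. The basal keratins KRT5 (0.0343, 0.0143 and 0 FPKM) and KRT14 (0.0121, 0.0405 and 0.06 FPKM) and the desmosomal DSG3 (0 in all 3) were at or near 0 in H3255. Of 12 tested keratins, 3 were higher, KRT15, KRT4 and KRT10, and 2 were lower, KRT81 and KRT86, which may share reads. These counts are near the 21.3% and 22.2% of all tested genes. KRT4 exceeded H820 by only 0.14 (adjusted p = 0.0215 in limma; 0.0719 at a pseudocount of 0.1, 0.0621 without H3255 replicate 3 and 0.113 without H820 replicate 2). KRT10 exceeded H1975 by 0.18 (adjusted p = 0.0164; 0.0767 without H3255 replicate 2, 0.0589 without H1975 replicate 2 and 0.0641 without H1975 replicate 3, in limma).

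None of 6 tested neuroendocrine genes and none of 9 tested gastrointestinal genes was higher than in each other line, and 2 and 1 were lower. Over all tested genes 21.3% were higher and 22.2% lower. CHGA was listed at 0 in all 3 H3255 libraries. Summed over the neuroendocrine list, H3255 libraries held 11.3 to 13.5 FPKM and A549 libraries 256.3 to 271 FPKM. Of 4 tested markers of blood, vessel, connective tissue and nerve cells, CD68 and MBP were lower and none was higher. That list of 16 genes summed to 7.4 to 8.1 FPKM in H3255 libraries and to 65.3 to 93.5 FPKM in the others.

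The genes most above and most below the other lines came from several of these groups and from outside them. Ranked by the smallest of the 3 differences, 11 of the 12 highest were HLA-DQB1, PPP1R1B, S100A9, NAPSA, SHISA2, HOPX, SFTPA1, CXCL17, CADPS2, PRSS8 and TRPC6. PPP1R1B, an inhibitor of protein phosphatase 1 known from dopamine signalling, was at 227, 224 and 225 FPKM in H3255 against 0.0794, 0.0495 and 0.0709 in H1975, 0.0549, 0.0459 and 0.0298 in H820 and 0.0111, 0.0159 and 0 in A549. S100A9, a calcium-binding protein abundant in neutrophils, was at 884, 883 and 902 FPKM in H3255 against 2.8, 3.0 and 3.9 in H1975, 2.54, 1.45 and 2.05 in H820 and 2.75, 1.99 and 2.57 in A549. For both genes the other 9 libraries held at most 3.9 FPKM. The cation channel TRPC6 was at 40.4, 41.2 and 41.6 FPKM in H3255 and at most 0.0638 elsewhere, and the mucosal chemokine CXCL17 at 81.6, 77.1 and 78.8 FPKM and at most 0.352. The noncoding transcript LOC101926959 was at 47, 48.8 and 51.7 FPKM in H3255 and at most 0.0144 elsewhere, with a numbered further copy at 48.7 FPKM on average, so its reads may be split.

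The 12 lowest by the same measure were LGALS1, RCN1, CALD1, CAV1, DSG2, BST2, VIM, EMP3, TGM2, GSTP1, PMP22 and NBL1. Galectin 1 (LGALS1), a secreted sugar-binding protein of mesenchymal cells, was at 0.645, 1.24 and 0.648 FPKM in H3255 against 868, 834 and 791 in H1975, 244, 257 and 256 in H820 and 218, 218 and 199.5 in A549. Caldesmon (CALD1), which binds actin and myosin, was listed at 0 FPKM in all 3 H3255 libraries against 38.1, 40.1 and 38.3 in H1975, 48.6, 48 and 48.9 in H820 and 41.8, 38.4 and 39.8 in A549. GSTP1, a glutathione transferase that detoxifies reactive compounds, was at 8.97, 7.23 and 8.22 FPKM in H3255 against 485, 456 and 454 in H1975, 248, 248 and 249.8 in H820 and 453, 447 and 447 in A549. All 3 had no overlap with any other line, and the differences were -9.3, -7.58 and -7.33 for LGALS1 and -5.75, -4.85 and -5.71 for GSTP1 (largest adjusted p = 1.17e-12 and 1.59e-15 in limma). Transglutaminase 2 (TGM2), which cross-links proteins, was also lower, at 0.174 ± 0.0682 FPKM in H3255 against 22.6 ± 0.102 in H1975, 19.1 ± 0.565 in H820 and 79.9 ± 4.97 in A549 (mean ± SD, n = 3). A value of 0 may be a failed estimate in these files: 191 cases were found of a gene listed at 0 in 1 library of a line and above 10 FPKM in another of that line. Most of those were small nuclear, nucleolar, transfer and Y RNAs, with the mitochondrial COX1 in A549 a protein-coding case. For CALD1, DSG2 and NRP2 all 3 H3255 libraries were at 0 while each other line averaged 5 FPKM or more.

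The GSTP1 promoter holds 1 match to TGANTCA, the letters that AP-1 and, within a longer site, NRF2 bind, which 7.76% of all promoters hold. It is shown because GSTP1 is among the 12 lowest genes. It begins 66 bases before the start and is in capitals below (RefSeq, GRCh38.p14, chr11:67583612-67583811, plus strand, 5′ to 3′).
GSTP1: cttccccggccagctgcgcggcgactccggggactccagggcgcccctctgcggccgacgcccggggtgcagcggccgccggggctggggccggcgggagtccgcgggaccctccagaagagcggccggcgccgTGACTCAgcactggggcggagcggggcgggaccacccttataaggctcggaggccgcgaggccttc
The window is 78.5% G and C.

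**Figure D3:**
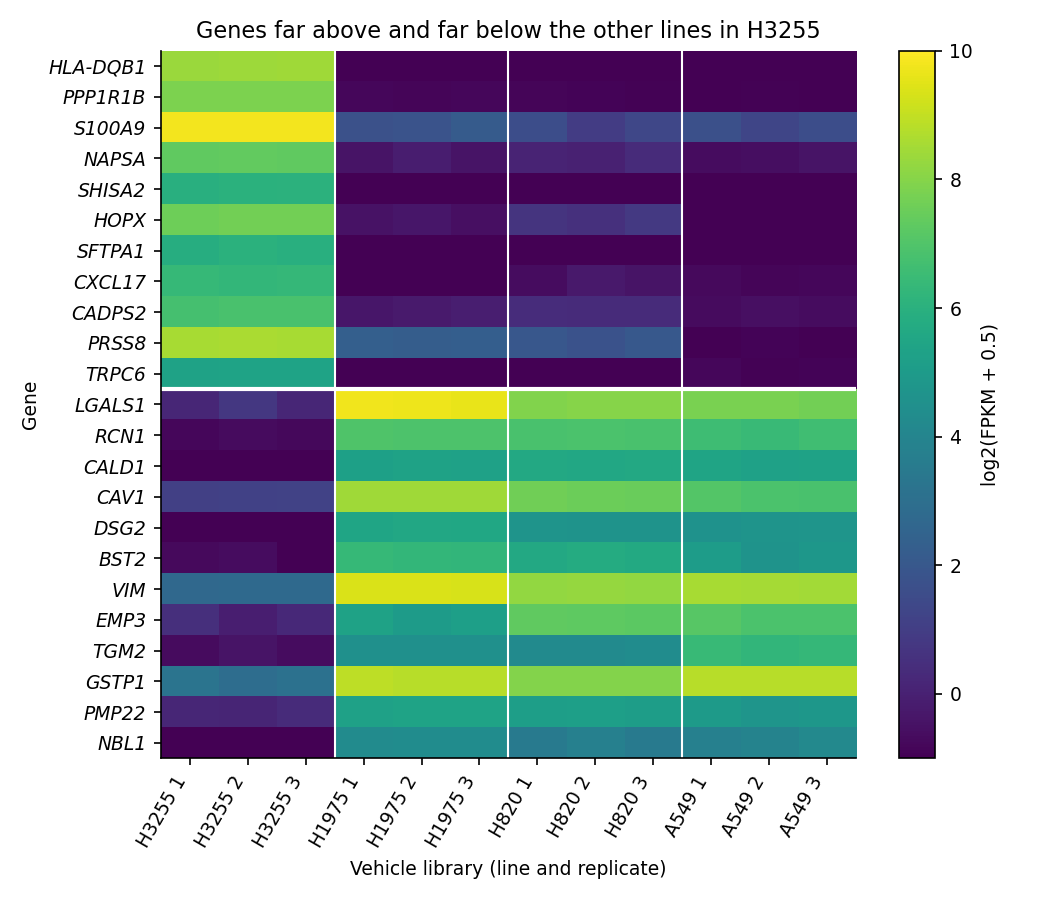
Heat map of log2(FPKM + 0.5) in the 12 vehicle libraries (columns) for 11 of the 12 genes most above and the 12 most below the other lines in H3255 (rows). In each row the 3 H3255 columns lie above the other 9 (upper 11 genes) or below them (lower 12 genes); S100A9 reads 883 to 902 FPKM in H3255 and at most 3.9 elsewhere.

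Interferon-stimulated genes were low in H3255. Of 39 tested, 27 were lower than in each other line, 22 of them at least 2-fold, and none was higher by that rule, against 22.2% and 21.3% of all tested genes, with medians of -1.57, -1.87 and -4.87. In the C36 libraries 22 of 39 were lower, and MX1, OAS3, OASL, SAMD9L and EPSTI1 lost the call. Summed over the list, H3255 libraries held 85.5 to 88.6 FPKM, H820 libraries 326.7 to 341.9, H1975 libraries 429.7 to 459.6 and A549 libraries 4728.2 to 5574. ISG15, a ubiquitin-like protein, was at 7.79, 7.57 and 6.54 FPKM in H3255 against 95.6, 76.1 and 81.5 in H1975, 59.5, 63.6 and 59.3 in H820 and 989.8, 814 and 871 in A549. BST2 (tetherin), which holds budding viruses at the cell surface, was at 0.107, 0.143 and 0 FPKM in H3255 against 82.5, 77.5 and 75.5 in H1975, 48.8, 54.6 and 50.2 in H820 and 33.2, 25 and 27.8 in A549. IFIT1, which binds viral RNA, was at 0.0659, 0.136 and 0.149 FPKM in H3255 against 10.9, 11.6 and 10.9 in H1975, 3.24, 3.56 and 2.97 in H820 and 298, 233 and 246 in A549. Their H3255 libraries were the lowest of the 12 in each case, and A549 was highest for ISG15 and IFIT1 but not for BST2.

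IRF9, a transcription factor of the interferon response, was not specific to H3255: it differed by -0.09 from H1975 and -0.15 from H820, and neither passed the threshold. Of 12 tested RNA and DNA sensors, 5 were lower and none was higher than in each other line, against 22.2% and 21.3% of all tested genes. The DNA-binding sensor IFI16 was at 3.13 ± 0.385 FPKM in H3255 against 67.4 ± 2.63 in H1975, 22.6 ± 0.38 in H820 and 34.6 ± 4.36 in A549 (mean ± SD, n = 3).

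Antigen presentation genes were mostly lower, with a few HLA genes far higher. Of 19 tested, 10 were lower and 4 higher, against 22.2% and 21.3% of all tested genes, so the higher count was near its share. HLA-DQB1, HLA-DRB1 and HLA-DQA1, among the higher ones, averaged at least 1 FPKM in H3255 only, so they could not be called lower. The medians of the 19 were -1.05, -0.91 and -1.58. B2M, the light chain of class I molecules, was at 59.2, 57.2 and 62.6 FPKM in H3255 against 301, 302 and 296 in H1975, 183, 182 and 181 in H820 and 705, 532 and 570.2 in A549. PSMB9, an immunoproteasome subunit, was at most 0.0168 FPKM in H3255 and at 2.37 ± 0.0943, 0.782 ± 0.0459 and 5.42 ± 1.19 in the others (mean ± SD, n = 3). HLA-C was lower, with differences of -1.78, -4.18 and -0.48, and HLA-B was lower than in H1975 and H820 but not called against A549 (-0.49, adjusted p = 0.0732 in limma). HLA genes are listed under several numbered copies that may share reads. The 6 further ones of HLA-C had a summed mean of 94.9 FPKM in H3255 and 45.6 in H1975, and the 5 of HLA-B 7.76 FPKM in H3255 and 122.3 in A549, so the differences of both genes between lines are uncertain.

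The class II gene HLA-DQB1 (chr6:32659467-32668383, GRCh38) was at 325, 334 and 343 FPKM in H3255 and listed at 0 in all 9 other libraries. Its 6 further copies added 1.13 FPKM on average. HLA-DRB1 (7.34, 7.05 and 6.4 FPKM) and HLA-DQA1 (2.83, 2.49 and 2.9 FPKM) were also found in H3255 and were at or near 0 elsewhere. The invariant chain CD74, which class II molecules need, was at 0.116, 0.0268 and 0.0636 FPKM in H3255 and at 32.7, 32 and 31.3 in H1975. HLA-DRA was at 0.586, 0.78 and 0.67 FPKM and the class II regulator CIITA at 0.355, 0.293 and 0.367 FPKM, both too low to be tested, with 7 further copies of HLA-DRA adding 2.51 FPKM in H3255 and 4.08 in H1975.

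Of 23 tested cell-cycle brakes and tumour suppressors, 5 were higher and 6 lower than in each other line, close to the 21.3% and 22.2% of all tested genes, so the list as a whole did not stand out. CDKN2A (chr9:21967753-21995301, GRCh38), which encodes p16 and p14ARF, was listed at 0 FPKM in all 3 H3255 libraries against 35, 32.7 and 32.9 in H1975, 349, 346 and 344 in H820 and 0, 0.0217 and 0 in A549. CDKN2B, its neighbour, was listed at 0 in all 3 H3255 libraries and at 6.07 ± 0.127 in H1975 and 16.6 ± 1.13 in H820 (mean ± SD, n = 3). Since A549 was also at or near 0 for both, neither was specific to H3255. MTAP, the next gene along and an enzyme of methionine salvage, was listed at 0 FPKM in all 3 H3255 libraries against 6.25, 6.68 and 7.16 in H1975, 13.2, 12.9 and 13.1 in H820 and 2.58, 2.63 and 2.86 in A549, so here H3255 was below A549 too (largest adjusted p = 6.55e-14 in limma).

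On either side of these genes lie KLHL9 and DMRTA1, which were chosen after their values were seen. KLHL9 was at 8.25, 8.24 and 8.56 FPKM in H3255 and averaged 3.175 in H1975, 6.82 in H820 and 9.69 in A549. It was not specific to H3255. DMRTA1 was at 0 in all 3 H3255 libraries, with 2.2 ± 0.167 in H820 (mean ± SD, n = 3). It averaged only 0.316 FPKM in H1975 and 0.211 in A549, so there its difference from H3255 was small. The chromatin remodeller SMARCA2 and the NRF2 inhibitor KEAP1 were lower, with differences of -1.77, -2.22 and -1.57 for SMARCA2 and -1.65, -0.56 and -0.88 for KEAP1. Cyclin E2 (CCNE2), which drives entry into S phase, was higher at 14.3 ± 0.611 FPKM in H3255 against 3.72 ± 0.0883 in H1975, 3.25 ± 0.171 in H820 and 1.5 ± 0.236 in A549 (mean ± SD, n = 3).

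Of 14 tested BCL2 family genes, 5 were higher and 1 lower, against 21.3% and 22.2% of all tested genes. The death-promoting BID and BIK were higher, by 1.7, 1.28 and 1.02 for BID and 1.96, 0.65 and 2.33 for BIK, and PMAIP1 (NOXA) was lower, with differences of -2.01, -1.45 and -1.88 (largest adjusted p = 3.24e-10, 4.17e-05 and 2.40e-08 in limma). Of 27 tested proliferation genes, 8 were higher and 5 lower, against 21.3% and 22.2% of all tested genes. The higher ones were BUB1B, MCM2, MCM3, MCM6, MCM7, TYMS, CDC6 and E2F1, and the lower ones CCNB1, AURKA, PLK1, UBE2C and KIF11. The helicase genes MCM4 and MCM5 were not specific.

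Of 28 tested glycolysis and hypoxia genes, 9 were lower and 3 higher, against 22.2% and 21.3% of all tested genes. Their medians were -1.08, 0.09 and -0.65. The lactate carrier SLC16A1 was at 0.00742, 0.0166 and 0.00244 FPKM in H3255 and at 22.2 ± 0.851, 16.9 ± 0.827 and 11.5 ± 0.871 in the others (mean ± SD, n = 3). A numbered copy of SLC16A1 averaged 0.00881 FPKM in H3255 and 22, 16.8 and 11.5 FPKM in the others. Pyruvate kinase (PKM) was at 302 ± 6.53 FPKM in H3255 against 916 ± 28.2 in H1975, 733 ± 3.93 in H820 and 1383 ± 26.2 in A549 (mean ± SD, n = 3), and the hypoxia-induced carbonic anhydrase CA12 was lower, with differences of -4.32, -2.96 and -7.63. VEGFA, the hypoxia-induced endothelial growth factor, was higher by 0.63, 3.09 and 1.89. The other higher members, ENO1 and ANKRD37, were nearest to H820 by 0.13 and to H1975 by 0.53. The call of ANKRD37 was lost without H3255 replicate 3 (adjusted p = 0.0726) or H1975 replicate 3 (0.0649), and that of ENO1 in the C36 libraries (0.164, all in limma).

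Of 25 tested NRF2 targets, 5 were lower, close to the 22.2% of all tested genes, and 1 was higher than in each other line. The medians of 0.08, 0.58 and -2.59 differed by comparison line. The target NQO1, a quinone reductase, was at 144 ± 6.75 FPKM in H3255 against 103 ± 3.74 in H1975, 36.7 ± 1.02 in H820 and 547 ± 15.8 in A549 (mean ± SD, n = 3), highest in A549. AKR1B10, a detoxifying reductase, was at most 0.0922 FPKM in H3255. Of 27 tested sterol and fatty acid genes, 5 were higher, led by CYP51A1 (1.4, 1.56 and 1.44), and 5 lower, led by the elongase ELOVL6 (-3.83, -2.45 and -2.23), both counts near the 21.3% and 22.2% of all tested genes.

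Of 28 tested HOX genes, 9 were lower, 6 of them in the HOXC cluster, and 4 were higher, led by HOXB2 (3.78, 2.99 and 2.8), against 22.2% lower and 21.3% higher of all tested genes. HOXC4 was listed at 0 in all 3 H3255 libraries, and the other lines ranged from 2.19, 1.86 and 2.35 in H820 to 3.35, 3.33 and 3.95 in H1975. Of 15 tested integrins, 7 were higher and 4 lower, against the same 21.3% and 22.2%. Among the higher ones were ITGB6, which activates TGF-beta, and ITGA9 (3.55, 3.46 and 3.63 FPKM against at most 0.00681 elsewhere). Of 7 tested cancer-testis genes, MAGEA3, MAGEA6 and MAGEA12 were higher and PRAME was lower. MAGEA12 was at 9.88, 10.3 and 10.5 FPKM in H3255, and the MAGEA genes may share reads with near-identical copies. ITGA9 and MAGEA12 averaged at least 1 FPKM in H3255 only, so they could not be called lower.

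**Figure D4:**
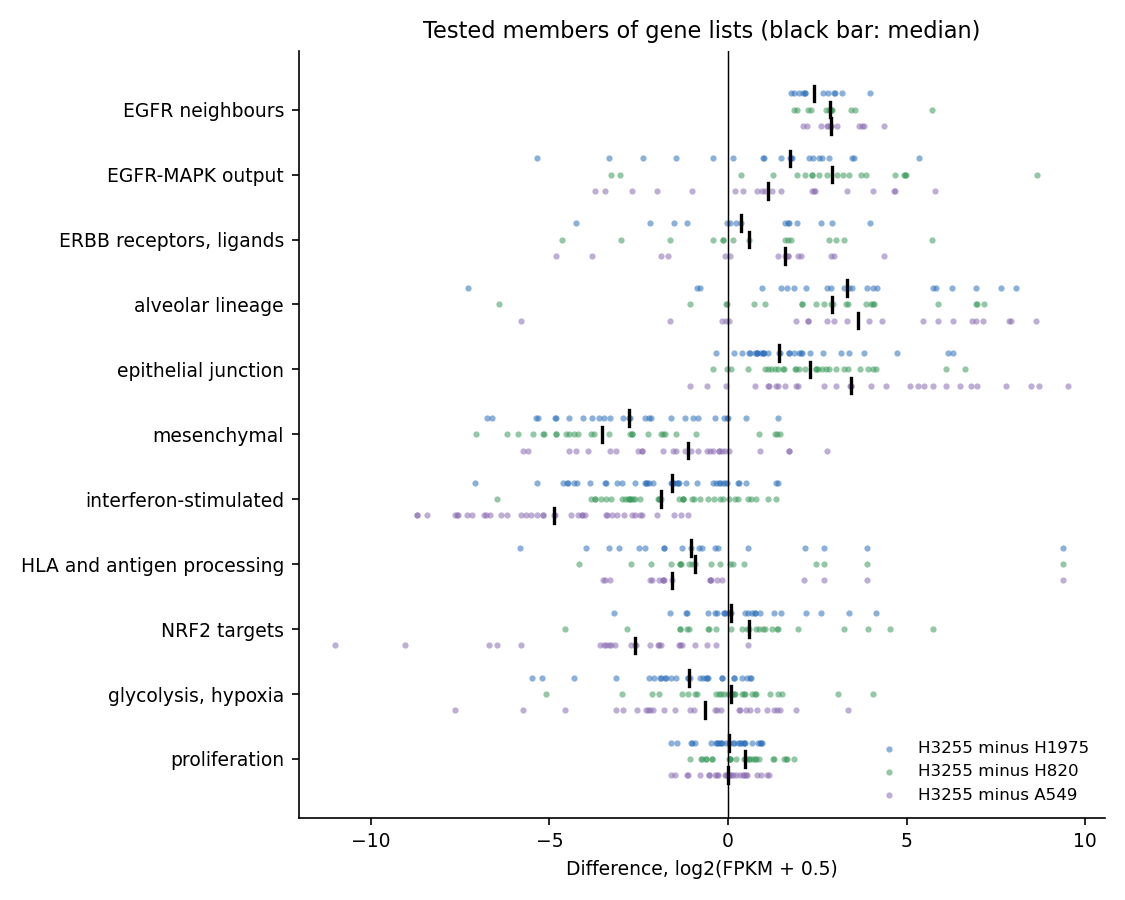
Differences between H3255 and each other line (horizontal axis, log2(FPKM + 0.5)) for the tested members of 11 gene lists; points are genes, colours the comparison line, and black bars medians. All points of the EGFR neighbours lie right of 0, most alveolar and epithelial points do too, and most mesenchymal and interferon-stimulated points lie left of 0, while NRF2 targets lie left mainly against A549.

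Calls were spread unevenly over chromosomes. On chromosome 7, which carries EGFR, 353 of 716 tested genes (49.3%) were higher than in each other line and 63 (8.8%) lower, with medians of 0.37, 0.66 and 0.94. The 2-fold rule was met by 110 genes of chromosome 7, only 12 of them in the span around EGFR. Chromosomes 14 (40.3%) and 6 (38%) followed. On chromosome X 247 of 499 genes (49.5%) were lower than in each other line, on chromosome 10 40.2% and on chromosome 18 39.6%, against 22.2% of all tested genes. Neighbouring genes are not independent of each other.

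**Figure D5:**
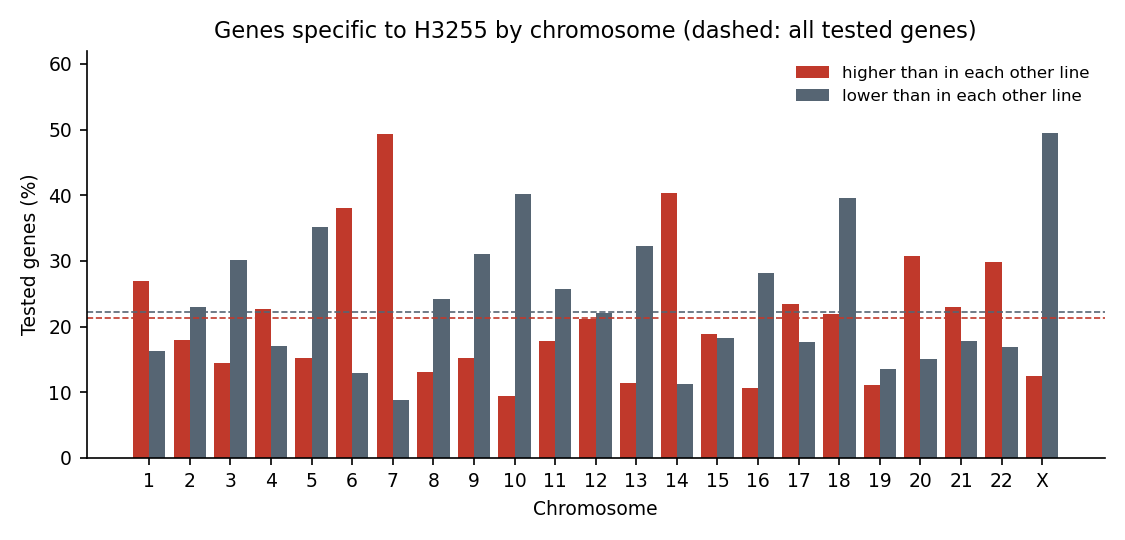
Share of tested genes on each chromosome that were higher (red) or lower (grey) in H3255 than in each other line (vertical axis, percent); dashed lines give the share over all tested genes. Chromosome 7 has the tallest red bar at 49.3% and chromosome X the tallest grey bar at 49.5%.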

How the data were processed

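The files hold 1 FPKM value per gene entry and library, deposited by the authors, who used HISAT2 and Cuffdiff on GRCh38.p12 (hg38), per the submitters' processing notes; the versions of both are not given in the sources used. Libraries were poly-A selected with a stranded kit and read as pairs of 100 bases, per the labels' protocols, and the series text calls the 3 replicates of a group independent experiments. The entries, 68271 a file, were joined by identifier; 1874 without a name and 31 with repeated names were left out, which left 66366, of which 7486 were numbered further copies of a name. FPKM are not counts, so no count model was used. Genes with a mean of at least 1 FPKM in any line (16765) were tested on log2(FPKM + 0.5), so differences of low genes are understated, with limma 3.58.1 (R 4.3.3): 1 mean per line over 12 vehicle libraries, trended and robust moderation, two-sided, Benjamini-Hochberg adjustment over all tested genes of a comparison, calls at 0.05. On simulated data for H3255 against each other line over 16765 genes, the 3-way rule recovered 76 of 100 genes changed by 0.5. It recovered 92 of 100 changed by 1 and called 0 of 16565 unchanged genes. All lines were there given the H3255 means and few genes were changed, whereas 83% to 84.1% were called in each real comparison. These rates therefore do not carry over to the real data.

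Members, the 26 gene lists and motifs were chosen with earlier results of these data known. Named genes were, in each direction, the 12 genes with the largest smallest-of-3 differences, up to 4 specific members per list and 2 noncoding genes, and besides 9 fixed genes and the tested neighbours of EGFR; other list members are given where they complete a group, and some genes of the rule are not reported here. Gene positions are from GENCODE release 29 (GRCh38), biotypes and promoters from RefSeq (GRCh38.p14), where 1418 tested entries were not matched. Relative depth was read from the spacing of low values. Alternatives covered pseudocount, filter, scaling, copies, replicate block, the libraries fitted and each library left out.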

Additional observations from a re-analysis of the deposited data

How the results depend on the processing

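Of 3607 alternative values of named genes over 21 settings, 3596 kept their direction and side of the threshold, 11 lost the call and 0 reversed; the 11 belonged to WFDC2, KRT4, ENO1, KRT10 and ANKRD37, and for KRT4 the C36 libraries did not give 1 direction. A pseudocount of 0.1 raised the genes at least 2-fold lower from 822 to 1322. With no filter on low values 20885 genes were called against H1975. Requiring a mean of 5 FPKM lowered the calls to 9392 against A549, 9259 against H1975 and 9309 against H820, and the genes at least 2-fold higher to 703; fewer genes were tested there. Leaving out 1 library at a time gave 3427 to 3621 genes higher, 3526 to 3742 lower, 1066 to 1095 at least 2-fold higher and 814 to 827 at least 2-fold lower. Rescaling by medians of ratios moved the median of all genes against H1975 from -0.138 to -0.01 and gave 3759 higher and 3575 lower. Under that scaling the list members that lost a call were CDK6, HLA-E, HOXA3, EPSTI1, UGDH, STARD4 and ACLY. In the C36 libraries ETV5 and 5 interferon-stimulated genes were among those that did. Same-numbered libraries of different lines correlated in their deviations between -0.047 and 0.134, over 0.1 in 3 of 18 pairs, so the numbers were not taken to pair the samples. With the replicate number as a block the calls were 14122 against A549, 13937 against H1975 and 14018 against H820, with 3578 genes higher, 3723 lower, 1073 at least 2-fold higher and 819 at least 2-fold lower. Depth is known only as a ratio between libraries, values near 0 carry no counting interval, and 3 cultures per line measure the spread of cultures, not of lines with a genotype.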

Other observations

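Some genes whose products work in pairs were high in H3255 without the partner; these genes were chosen after their values were seen. S100A9 was at 884, 883 and 902 FPKM, and S100A8, with which it forms calprotectin, at 0.328, 0.374 and 0.302 FPKM in the same libraries. HLA-DQB1 was at 325, 334 and 343 FPKM and its antisense transcript HLA-DQB1-AS1 at 9.82, 9.61 and 9.49 FPKM, while the alpha chain HLA-DQA1 was at 2.83, 2.49 and 2.9 and HLA-DRB5 at 10.1, 9.51 and 10.3 FPKM. All of the class II genes named here lie in 1 stretch of 10 neighbouring tested genes on chromosome 6, from FKBPL to HLA-DQB1-AS1, of which 6 were higher than in each other line.

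Other stretches of 10 neighbours stood out after the one at EGFR. They, and the one from FKBPL to HLA-DQB1-AS1, were taken from the ends of a ranking by median difference. Many calls within them therefore follow from that choice. Among all tested genes 21.3% were higher and 22.2% lower. On chromosome X, from HMGB3 to MAGEA2, 6 genes were higher, among them CSAG1 (23.6, 24 and 25.8 FPKM) and PASD1 (2.96, 2.6 and 2.48 FPKM), at most 0.0282 and 0 FPKM in any other library. On chromosome 7, from FAM3C to GPR37, 7 were higher, among them CADPS2 (107, 115 and 115 FPKM), PTPRZ1 (2.0, 2.12 and 2.22 FPKM) and RNF148 (4.86, 5.01 and 5.0 FPKM). A stretch of histone genes on chromosome 6, from ZNF184 to H1-5, had 8 higher. A histone stretch on chromosome 1, from LINC00869 to H2BC21, had 7 lower and 2 higher. The libraries were poly-A selected, and most histone transcripts lack a poly-A tail. On the lower side, all 10 tested genes from ALDH1B1 to ZNG1F on chromosome 9 were lower than in each other line, and the median difference nearest 0 was -1.42. Ranked beyond it were SNORD14D to NRGN on chromosome 11 (-1.515, 8 genes lower) and IFIT2 to PCGF5 on chromosome 10 (-1.432, 8 genes lower). PLIN2, which coats lipid droplets and lies on the same chromosome, was at 0.981, 1.1 and 1.16 FPKM in H3255 and at 85.9 ± 1.78, 24 ± 0.969 and 27.6 ± 2.52 in H1975, H820 and A549 (mean ± SD, n = 3).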
